A study of Mus musculus with 8 samples.

Results

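Cd55, Cd84 and Cd300ld are 3 genes for immune receptors or regulators on the cell surface, out of 482 genes that have a name in these data. They were picked by symbol from the authors' deposited table of probesets that differ between CD38high and CD38low cells. That table rests on the difference between the fractions and on the spread within a fraction, so the size and direction of that difference are given here as a description, without a test. The samples were splenocytes that carry CD11b and Gr1, the surface phenotype of mouse myeloid-derived suppressor cells, from mice with esophageal tumors. All mice were 12 months old, of the genotype L2Cre;p120f/f and of a mixed C57BL/6x129 background. In this model the L2 promoter drives Cre in the lining of the upper digestive tract, where Cre deletes the floxed p120 gene. Every sample carried this genotype and came from a tumor-bearing animal, so nothing below compares tumor with no tumor. Sorting on CD38 gave a high and a low fraction, each measured on 4 arrays, from mice 1, 2 and 3 and from 1 pool of splenocytes of 3 mice. The same mouse or pool supplied both fractions of a pair. Itgam, for CD11b, and Ly6g and Ly6c2, linked to Gr1, have no named probeset here, so the gate could not be checked beyond Cd38.

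The 3 proteins act on different arms of immunity. CD55, or decay-accelerating factor, is held in the outer membrane by a lipid anchor and speeds the decay of the convertases of complement, which protects the cell that carries it. It also binds CD97, an adhesion receptor of leukocytes encoded by Adgre5. CD84, also called SLAMF5, belongs to the SLAM family of receptors. It binds CD84 on a neighbouring cell and signals through adaptors of the SAP family that dock on its tail. CD300LD, listed by RefSeq also as CLM5, LMIR4 and MAIR-IV, belongs to the CD300 family of paired receptors, whose members either activate or inhibit myeloid cells. In mice it is an activating receptor that works with the FcR gamma chain. CD84 and CD300LD have both been described on suppressor cells of the granulocyte type in mouse tumor models.

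The genes lie in 3 separate gene clusters. Cd55 and Cd84 are on chromosome 1 and Cd300ld is on chromosome 11, per the authors' deposited table. In the order of protein-coding genes of RefSeq (GRCm38.p6), Cd55 lies beside its copy Cd55b, Zp3r and C4bp. Cd84 lies between Slamf1 and Slamf6, and Cd300ld lies between Cd300c and Cd300c2. Of the 12 nearest protein-coding neighbours of each gene, counted as 6 on each side, 0 had a name in the data for Cd84, 0 for Cd300ld and 1 for Cd55. That gene was Mcm6, a subunit of the replicative helicase, which is lower in CD38high cells in the authors' deposited table. Whether the neighbouring receptors differ between the fractions was not analysed here.

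The promoters are shown because the 3 transcripts are higher in the same arrays, a likeness that the choice of the genes fixed. Each line gives 250 bases before and 50 bases from the start site on, 5′ to 3′ on the strand of the gene, from RefSeq on build GRCm38.p6. The Cd55 promoter is chr1:130462695-130462994 on the minus strand. The Cd84 promoter is chr1:171839447-171839746 on the plus strand, and the Cd300ld promoter is chr11:114989837-114990136 on the minus strand. Capitals mark matches, on either strand, to any of 6 motifs: the PU.1 box GAGGAA, the C/EBP motif TTGCNNAA, the RUNX motif TGTGGT, the AP-1 motif TGANTCA, the TATA box TATAAA and the GC box GGGCGG.
Cd55 promoter: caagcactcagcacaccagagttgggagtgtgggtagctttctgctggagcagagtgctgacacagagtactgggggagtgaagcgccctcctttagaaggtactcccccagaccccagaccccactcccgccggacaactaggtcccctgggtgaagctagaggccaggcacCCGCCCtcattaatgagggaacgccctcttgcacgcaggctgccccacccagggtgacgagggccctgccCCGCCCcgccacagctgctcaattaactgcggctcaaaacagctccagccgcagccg
Cd84 promoter: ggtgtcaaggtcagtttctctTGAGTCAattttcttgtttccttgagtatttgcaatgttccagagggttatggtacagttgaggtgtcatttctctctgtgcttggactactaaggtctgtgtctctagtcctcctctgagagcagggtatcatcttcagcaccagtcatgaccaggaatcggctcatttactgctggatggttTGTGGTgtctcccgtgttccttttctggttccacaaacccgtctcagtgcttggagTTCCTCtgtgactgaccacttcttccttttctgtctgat
Cd300ld promoter: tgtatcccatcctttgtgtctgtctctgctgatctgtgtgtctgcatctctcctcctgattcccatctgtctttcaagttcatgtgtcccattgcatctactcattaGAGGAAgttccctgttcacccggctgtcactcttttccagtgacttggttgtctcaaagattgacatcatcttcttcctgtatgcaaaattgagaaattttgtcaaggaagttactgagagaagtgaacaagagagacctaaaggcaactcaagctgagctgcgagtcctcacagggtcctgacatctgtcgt

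No motif of the 6 was found in all 3 promoters. The Cd55 window held the GC box at 2 places, starting 77 and 7 bases before the start site, and 35.7% of the 32851 windows in the RefSeq table hold it. The Cd300ld window held the PU.1 box 143 bases before the start site. The Cd84 window also held a PU.1 box, from base 12 to base 17 after the start site. This box is in 28.3% of all windows. The Cd84 window further held the AP-1 motif, present in 7.81% of windows, and the RUNX motif, present in 16.8%. The C/EBP motif and the TATA box, present in 10.8% and 13.6% of all windows, were in none of the 3. No match overlapped another. In base composition Cd84 and Cd300ld were close to each other and Cd55 stood apart. G and C made up 63.3% of the Cd55 window, 46.7% of the Cd84 window and 45.3% of the Cd300ld window, where the median of all windows was 52.7%. The Cd55 window held 12 CG dinucleotides and the other two held 3 each. These matches describe letters in the sequence and say nothing of a factor bound there.

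Cd55 has a close copy in the mouse genome, Cd55b. Only the promoters of the copies were compared here, and not the transcripts that the probes measure. Cd55 encodes the lipid-anchored form and Cd55b a form with a membrane-spanning segment. Their promoters were identical at 225 of 300 bases (75%) in a global alignment, with a longest shared run of 24 bases, ggacaactaggtcccctgggtgaa. The promoters of Cd55 and Cd84 were identical at 57.3% of bases and those of Cd84 and Cd300ld at 59% by the same alignment. Whether the Cd55 probeset separates Cd55 from Cd55b, or the Cd300ld probeset separates Cd300ld from its neighbours in the CD300 cluster, was not tested, since no probe sequences were used here.

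Cd55 was higher in CD38high cells in every pair. Its log2 level in the CD38high fraction was 11.07 in mouse 1, 10.35 in mouse 2, 11.26 in mouse 3 and 11.03 in the pool. In the CD38low fraction it was 9.28, 8.48, 8.90 and 9.78 in the same order. The fractions did not overlap: the lowest CD38high array, that of mouse 2, lay 0.57 above the highest CD38low array, that of the pool. The means were 10.93 ± 0.40 and 9.11 ± 0.55 (SD, n = 4 each), a log2 difference of 1.82 ± 0.30 (SE) or 3.53-fold. For all 3 genes the SE printed with the difference comes from a fit without pairing. In bulk RNA, more cells with a transcript and more transcript per cell cannot be told apart, here and in all results below.

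Cd84 had the smallest difference of the 3 and the tightest values. Its log2 level in CD38high cells was 11.89 in mouse 1, 11.60 in mouse 2, 11.81 in mouse 3 and 11.71 in the pool. In CD38low cells it was 10.75, 10.37, 10.66 and 10.93 in that order. No CD38high array fell below a CD38low array, and the gap between the fractions was 0.66. The means were 11.75 ± 0.13 and 10.68 ± 0.23 (SD, n = 4 each), a log2 difference of 1.08 ± 0.13 (SE) or 2.11-fold. This lies just inside the 2-fold minimum of the authors' deposited table, where Cd84 ranks 105 of the 121 named probesets that are higher in CD38high cells. The smallest difference in that direction was 2.00-fold, for Sh2d3c, and probesets just outside the minimum have no name here. In the pool alone the Cd84 difference was 0.78 on the log2 scale, or 1.71-fold, below that minimum.

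Cd300ld had the largest difference of the 3. Its log2 level in CD38high cells was 11.28 in mouse 1, 10.49 in mouse 2, 11.14 in mouse 3 and 10.78 in the pool. In CD38low cells it was 9.46, 8.06, 8.82 and 9.23 in that order. The gap between the lowest CD38high and the highest CD38low array was 1.03, the widest of the 3 genes. The means were 10.92 ± 0.35 and 8.89 ± 0.62 (SD, n = 4 each), a log2 difference of 2.03 ± 0.31 (SE) or 4.08-fold. By size it ranks 15 of 121, and Cd55 ranks 24. Every CD38high array was above every CD38low array for all 3 genes. This holds for 6.99% of all 23332 probesets, and the choice of the genes fixed it.

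**Figure D1:**
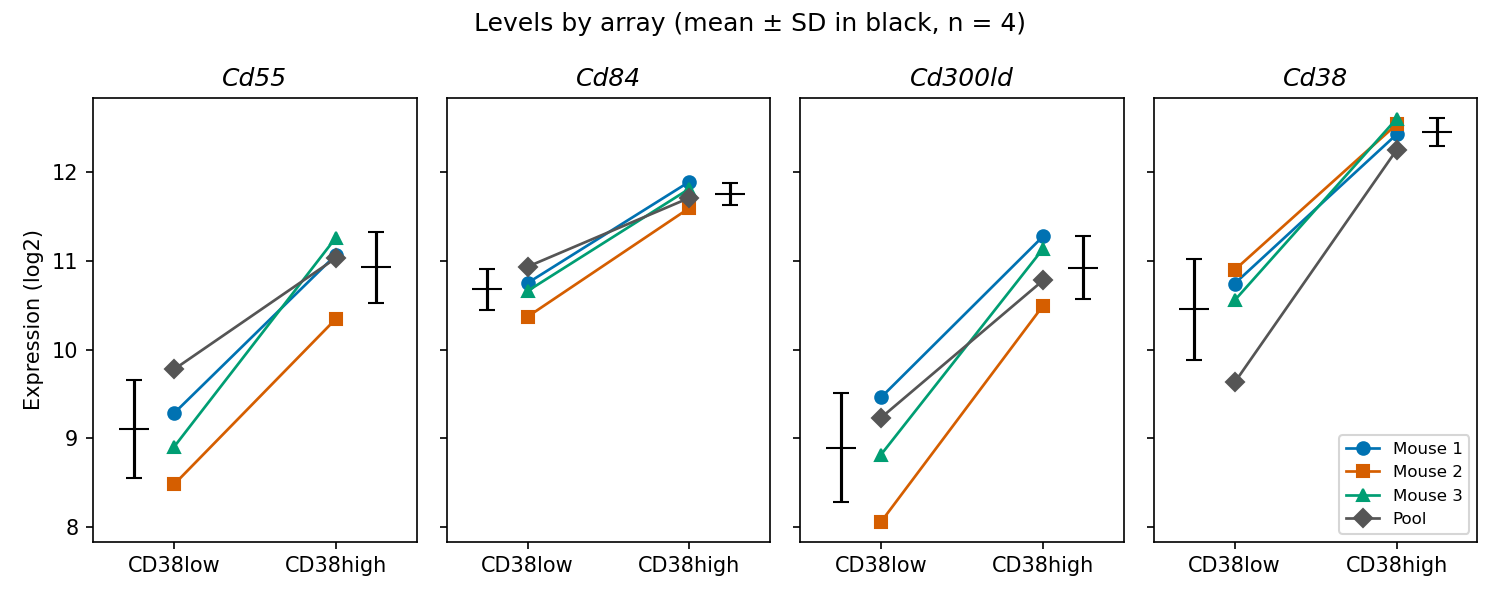
Log2 expression of Cd55, Cd84, Cd300ld and Cd38 (vertical axis) in CD38low and CD38high cells of each mouse or pool, with lines joining the fractions of a pair and the mean ± SD (n = 4) in black. Mouse 2 is the lowest array of both fractions for the 3 surface regulators and not for Cd38; heights are not to be compared between panels, since each is another probeset.

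The pairs did not all show differences of the same size. For Cd55 the log2 difference was 1.79 in mouse 1, 1.87 in mouse 2, 2.36 in mouse 3 and 1.26 in the pool. For Cd84 it was 1.14, 1.23, 1.15 and 0.78. For Cd300ld it was 1.82, 2.44, 2.32 and 1.55. The pool thus had the smallest difference for all 3 genes. The SD of the pair differences was 0.45 for Cd55, 0.20 for Cd84 and 0.42 for Cd300ld. Between genes, the Cd300ld difference exceeded that of Cd84 in 4 of 4 pairs, by 0.95 ± 0.27 on the log2 scale (SD, n = 4 pairs), and the Cd55 difference exceeded that of Cd84 in 4 of 4 pairs, by 0.74 ± 0.32. Cd300ld and Cd55 differed by less than this spread, 0.21 ± 0.28, with Cd300ld ahead in 3 of 4 pairs.

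In the pool, the size of the difference did not run parallel to that of Cd38, the NAD-consuming surface enzyme on which the cells were sorted. The Cd38 difference was 1.68 in mouse 1, 1.64 in mouse 2, 2.05 in mouse 3 and 2.62 in the pool, on the log2 scale. The pool was therefore highest for Cd38 and lowest for the 3 surface regulators. Among the mice alone, mouse 3 had the largest difference for both Cd38 and Cd55, and mouse 2 had it for Cd84 and Cd300ld. In the CD38low fraction the Cd38 level of the pool was 9.63, below the 10.56 to 10.90 of the mice. In the same array Cd55 and Cd84 stood at the top of the CD38low fraction, and Cd300ld was second after mouse 1. With 4 pairs no correlation was computed.

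**Figure D2:**
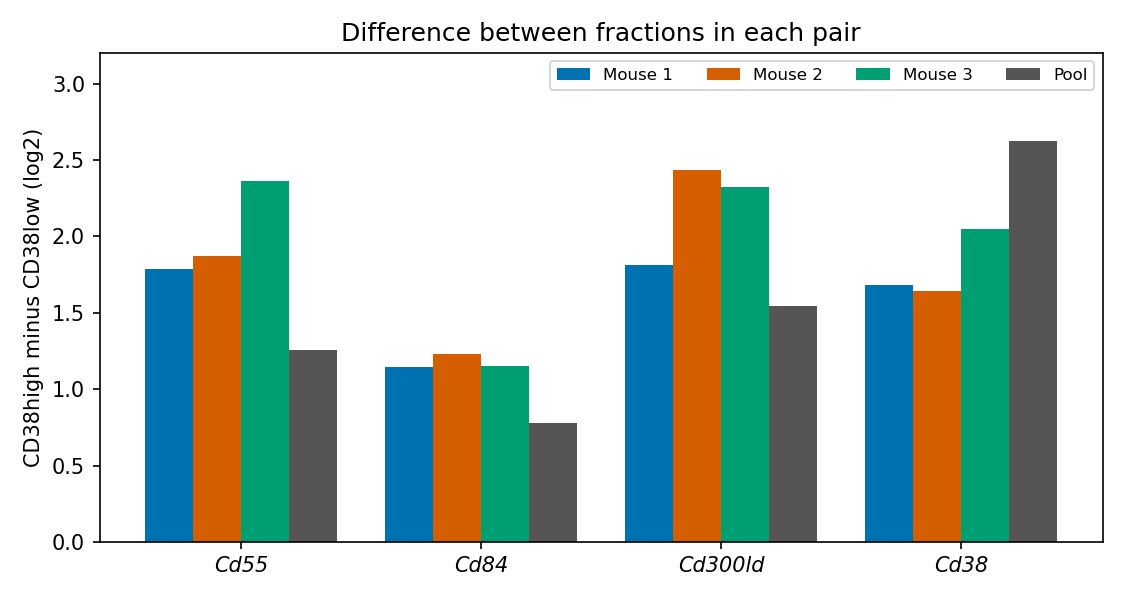
Difference between CD38high and CD38low cells on the log2 scale (vertical axis) for Cd55, Cd84, Cd300ld and Cd38, with 1 bar for each mouse or pool. The pool has the shortest bar for the 3 surface regulators (1.26, 0.78 and 1.55) and the tallest for Cd38 (2.62).

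The arrays also allow a comparison between the mice and the pool. It is separate from the difference between the fractions but not from the spread within a fraction that the authors' selection used. Both fractions of a pair came from the same mouse or pool, so animal and handling of the sample cannot be told apart. Averaged over both fractions, Cd55 stood at 9.41 in mouse 2 and between 10.08 and 10.40 in the other mice and the pool. Cd300ld stood at 9.28 in mouse 2 and between 9.98 and 10.37 elsewhere. Cd84 stood at 10.98 in mouse 2 and between 11.24 and 11.32 elsewhere. Mouse 2 was the lowest array of both fractions for each of the 3 genes, also after quantile scaling or median centring. The medians of the mouse 2 arrays over all probesets were the highest of their fractions, at 7.10 and 7.07.

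These differences between the mice and the pool did not pass the test. In the limma fit with fraction and mouse or pool, the F test of the mouse or pool term gave an adjusted p of 0.142 for Cd300ld (unadjusted p = 0.0185), 0.19 for Cd55 (unadjusted p = 0.033) and 0.443 for Cd84 (unadjusted p = 0.17). None of the 3 was called at an adjusted p under 0.05, against 732 of 23332 probesets (3.14%). The count of 732 fell to 0 in this limma test without mouse 2 and without mouse 3, where 3287 and 4284 probesets had an unadjusted p under 0.05. Differences between mice add to the spread within a fraction, so the selection bore on this test too. The term was called for 3 of the 121 named probesets higher in CD38high cells and for 0 of the 363 lower ones. A p above the threshold does not show equal levels.

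Both features of the 3 genes were common among listed genes of the same direction. Mouse 2 was lowest in both fractions for 33 of the 121 named probesets that were higher in CD38high cells (27.3%), for 24 of 363 lower ones (6.61%) and for 2028 of all 23332 (8.69%). The smallest absolute difference lay in the pool for 78 of the 121 (64.5%), for 128 of the 363 (35.3%) and for 5849 of all probesets (25.1%). Both features together were found in 26 of the 121 (21.5%) and in 645 of all (2.76%). The median log2 difference of the 121 probesets was 1.42 in mouse 1, 1.31 in mouse 2, 1.48 in mouse 3 and 1.07 in the pool. These patterns were noticed in the 3 genes first and then counted, so the counts are a description. The SD was larger in CD38low than in CD38high cells for the 3 genes, as it was for 89 of the 121 (73.6%) and for 58.9% of all probesets.

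**Figure D3:**
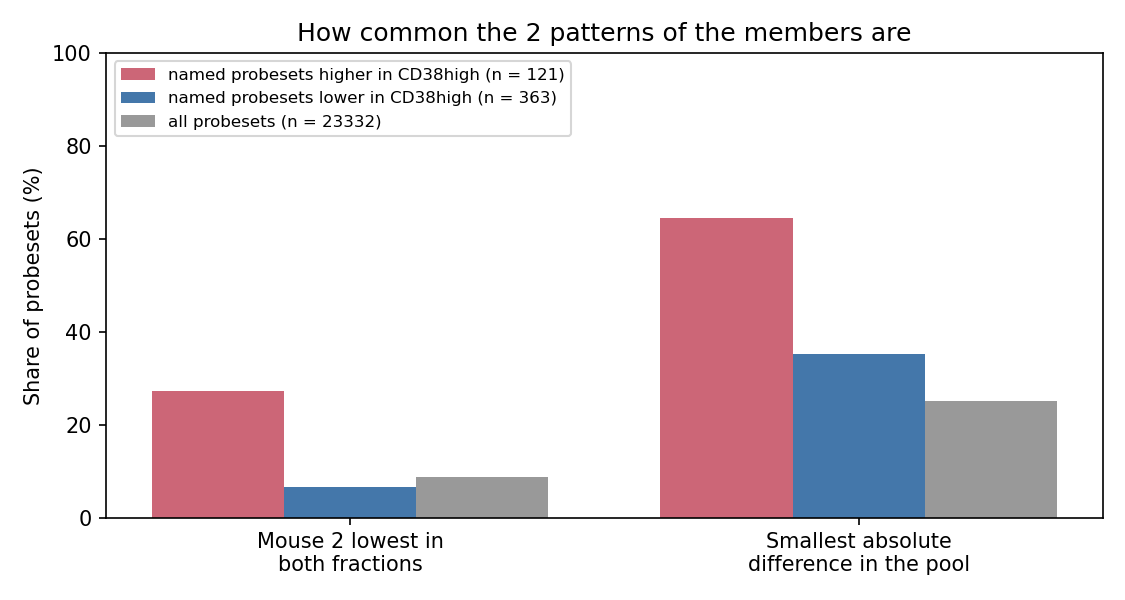
Share of probesets (vertical axis, percent) in which mouse 2 was the lowest array of both fractions, or in which the pool had the smallest absolute difference between fractions, for named probesets higher (n = 121) or lower (n = 363) in CD38high cells and for all 23332. Both shares are largest among the higher probesets, at 27.3% and 64.5%.

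The genes whose pattern was most like that of each were sought among 477 named genes by the root mean square distance over the 8 arrays, after each gene's mean was subtracted. This distance weighs the size of the difference between fractions as well as the differences between mice. Closest to Cd55 was Chil5, a chitinase-like gene (distance 0.17 on the log2 scale). It was followed by Timp2, an inhibitor of metalloproteases (0.21), Il1rn, the interleukin 1 receptor antagonist (0.21), Slc37a3, a solute carrier (0.22), and Bst1, an ADP-ribosyl cyclase anchored in the membrane like CD55 by a lipid (0.22). The Chil5 level was lowest in mouse 2 in both fractions, at 10.41 in CD38high and 8.39 in CD38low cells, as was that of Cd55.

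Cd300ld shared 3 of these. Its 5 closest genes were Chil5 (0.26), Slc37a3 (0.28), Timp2 (0.30), Rin2, a regulator of RAB5 (0.31), and Arhgap24, a GTPase-activating protein for RAC (0.31). The distance between Cd300ld and Cd55 was 0.26. Of the 477 genes, 1 was closer to Cd300ld than Cd55 was, and 7 were closer to Cd55 than Cd300ld was. Cd84 was less close to both: it lay 0.46 from Cd55 and 0.56 from Cd300ld, and 97 and 103 named genes were closer to Cd84 than these. In the other direction, 49 named genes were closer to Cd55 than Cd84 was, and 53 were closer to Cd300ld. Cd38 lay at 0.66 from Cd300ld, 0.72 from Cd55 and 0.67 from Cd84, with 90, 113 and 105 named genes closer.

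Cd84 had other close genes, with differences near its own. They were Slc44a1, a choline transporter (0.08), Fas, the death receptor (0.11), Gng2, a G protein gamma subunit (0.13), Slfn1, a schlafen (0.14), and Rnf144a, a ubiquitin ligase (0.14). The Slc44a1 log2 level was 9.52 in mouse 1, 9.14 in mouse 2, 9.41 in mouse 3 and 9.20 in the pool in CD38high cells. In CD38low cells it was 8.36, 7.74, 8.10 and 8.45 in that order. Slc44a1 and Cd84 placed the 4 arrays of each fraction in the same order. The 12 distinct genes were all higher in CD38high cells, by 2.02-fold to 4.32-fold. Mouse 2 was lowest in both fractions for 11 of the 12, with Rnf144a as the exception, and the pool had the smallest difference for 10 of the 12, with Rin2 and Gng2 as the exceptions. These genes were chosen for likeness over the same 8 arrays, so that they share these features follows from the choice.

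**Figure D4:**
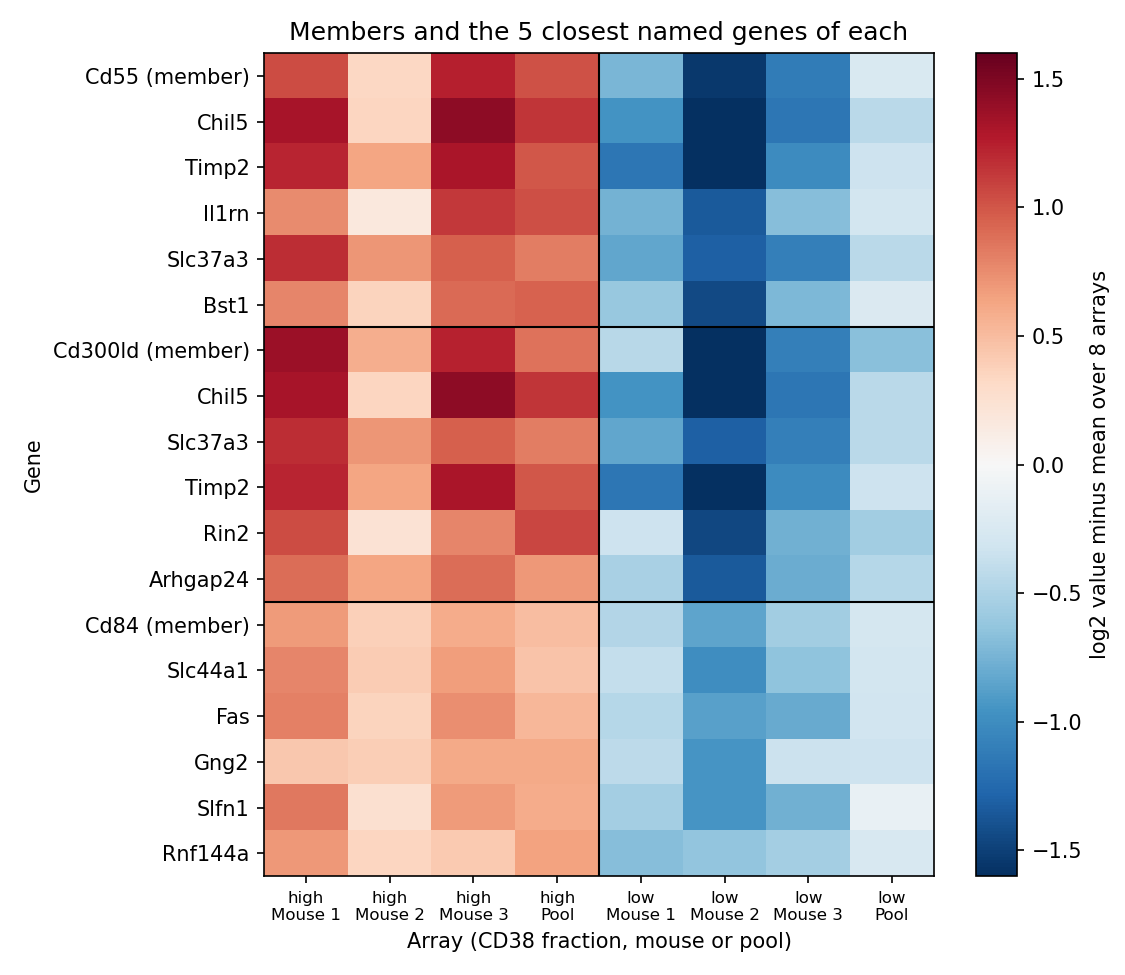
Log2 value minus the gene's mean over 8 arrays (colour) for Cd55, Cd300ld and Cd84 and the 5 closest named genes of each (rows) in each array (columns). The CD38low array of mouse 2 is the deepest blue for the 3 members, and the CD38low pool is among the palest of its fraction.

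Few partners of the 3 proteins could be read. Of 30 genes for complement regulators, receptors and the CD55 ligand, 2 had a name, 1 higher and 1 lower in CD38high cells. Both have a name only because the authors listed them as changed on these arrays, so their direction and size are a description, without a test. Beside Cd55 this was Clu, which encodes clusterin, a secreted inhibitor of the terminal complement complex. Clu stood at 7.04 ± 0.06 in CD38high and 8.26 ± 0.34 in CD38low cells (SD, n = 4 each), 2.33-fold lower. In limma at an adjusted p under 0.05, 10.6% of all probesets were called in either direction and 3.74% as higher, and with the replicate block of mouse or pool 16.8% and 6.97%.

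Of 16 genes of the SLAM family and its adaptors, 1 had a name, Cd84 itself. Of 16 genes of the CD300 family and its adaptors, 1 had a name, Cd300ld itself. Of 38 other surface receptors of myeloid cells, activating or inhibitory, 1 had a name and was higher. It was Clec4e, the receptor Mincle, which was 2.15-fold higher, at 12.27 ± 0.11 in CD38high and 11.16 ± 0.17 in CD38low cells (SD, n = 4 each). Clec4e is also on the mature neutrophil list below, so it is counted in both. Of 16 checkpoint ligands and costimulatory molecules, 0 had a name. Names come from the authors' deposited table of changed probesets alone, so an unnamed gene is not shown to be equal between the fractions, and each named one was selected as changed.

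Marker genes of several cell types also differed between the fractions, some in the direction of the 3 surface regulators and some in the other. Their part in these results was not tested. Each named marker was listed by the authors as changed on these arrays, so its direction is a description, without a test. Of all named probesets, 121 were higher and 363 lower in CD38high cells. Of 22 mature neutrophil markers 6 had a name and 6 of 6 were higher in CD38high cells. Their summed linear level ranged from 26758 to 31530 in CD38high and from 11449 to 15126 in CD38low arrays. Il1rn and Slfn1, close to Cd55 and to Cd84, are 2 of these 6. Of 9 markers of neutrophil precursors 5 had a name and all 5 were lower, with a summed level of 9611 to 13278 against 42693 to 46715. The B cell marker Cd79a, 1 of 14 listed, ranged from 254 to 858 in CD38high and from 87.5 to 161 in CD38low arrays. Mgl2, 1 of 20 markers of monocytes, macrophages and dendritic cells, ranged from 50.6 to 81.2 against 298 to 475. Of 18 T and NK cell markers, Ccr7 was 2.57-fold higher and Nkg7 5.31-fold lower. Selp, 1 of 13 platelet and erythroid markers, was 2.42-fold higher. Hdc, 1 of 13 markers of eosinophils, basophils and mast cells and also on the mature neutrophil list, was 2.20-fold higher. Defining markers without a named probeset, such as Ly6g, Csf1r and Cd3e, were not analysed here.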

How the data were processed

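Per the labels' protocols, amplified and biotin-labelled cDNA of sorted splenocytes was hybridised to 1-colour Affymetrix GeneChips. Deposited by the authors were log2 expression values for 23332 probesets and 8 arrays, and a table of 498 probesets with gene names. Affymetrix Power Tools, RMA, PLIER and the build mm9 are named in the submitters' processing notes. Which method gave the log2 values is not given in the sources used here. Array medians were 6.92 to 7.10, arrays correlated at 0.935 to 0.988 across probesets, and the number of arrays limits precision.

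All 498 rows equalled exactly 1 row of the value table at 5 decimals, which named 484 probesets (482 genes). Symbols were updated through RefSeq (GRCm38.p6). Differences are CD38high minus CD38low. Fits used limma 3.58.1 in R 4.3.3 on all probesets, with Benjamini-Hochberg adjustment, after a test on simulated arrays. The main fit had no block, after the unpaired test of the series design. Deviations from group means correlated at 0.345 to 0.675 for arrays of 1 mouse or pool, and from -0.577 to 0.1 for other pairs of opposite fractions. The labels give both fractions the same mouse or pool, so the replicate block is a paired fit. Whether the pooled mice included mice 1 to 3 is not stated.

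The genes and lists were chosen with earlier results of these data known, and the promoter motifs after the sequences were seen. Named genes are the 3 genes, Cd38, the 5 closest to each and named list members. Predicted genes, small RNAs and immunoglobulin segments were left out of the search, and a gene with several probesets took the one with the highest mean. Mcm6 and Sh2d3c were named after their values were seen. Tables and plots used Python 3.11.15, pandas 2.3.3, numpy 2.4.6 and matplotlib 3.10.9.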

Additional observations from a re-analysis of the deposited data

Results flagged for a closer look

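Dixon's test at the 95% level was applied to each group of 4 values named here, to find single values far from the other 3. It singled out 2 of 65 groups, where chance gives about 3.2, and neither was a group of Cd55, Cd84 or Cd300ld values. For Gng2, close to Cd84, the CD38low array of mouse 2 stood at 9.64 and the others of that fraction at 10.16 to 10.24. For the neutrophil marker Fpr1, the CD38high array of mouse 3 stood at 13.54 and the others of that fraction at 13.31 to 13.33.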

How the results depend on the processing

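The log2 differences of the 3 genes moved by less than the SD of their pairs under quantile scaling, median centring and group medians. Leaving out a mouse, the pool or 1 array gave 1.61 to 2.04 for Cd55, 0.97 to 1.18 for Cd84 and 1.75 to 2.22 for Cd300ld. The replicate block changes their SE and not their size. The SE was 0.30 without it and 0.18 with it for Cd55, 0.13 and 0.10 for Cd84, and 0.31 and 0.17 for Cd300ld. The mouse or pool term passed for none of the 3 under any alternative, with adjusted p of 0.0796 to 1 for Cd300ld, 0.112 to 1 for Cd55 and 0.267 to 1 for Cd84. The count for that term over all probesets (732) was 0 without the fraction term (2752 at an unadjusted p under 0.05 in limma), 297 with arrays centred on their medians and 1106 among probesets over the median level, and 0 to 865 without a mouse or the pool. The count of probesets that differ between the fractions (2479) was 3929 with the replicate block as a paired fit, 3840 with a random replicate block, 351 by the methods' t-test at the study's threshold and 1598 by that test after Benjamini-Hochberg. It was 540 to 2436 without a mouse, the pool or 1 array: 540, 1334 and 1125 without mouse 1, mouse 3 and the pool, 1188 and 1460 without the CD38high array of mouse 1 and of the pool, and 1591 without the CD38low array of mouse 1. The cause was not tested. The permutations of the series design were not run. The 351 probesets are fewer than the 498 that the authors listed, so the t-test as run here does not return their list. Whether each of the 3 genes is among the 351 is not given here.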
